A study of Rattus norvegicus with 12 samples.

Results

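The data describe what ChREBPβ did to the transcriptome of the insulin-making rat insulinoma line INS-1 832/13 when glucose was kept low. Cells were infected with an adenovirus carrying GFP or with one carrying ChREBPβ and were held in 2 or 11 mM glucose, which gave 4 groups of 3 RNA-seq libraries labelled a, b and c. The comparison described here is between the 3 ChREBPβ and the 3 GFP libraries at 2 mM glucose, that is 6 of the 12 libraries, and it takes in every named gene of the count table (28727 names, of which 14669 had enough reads to be tested). RNA was collected after 48 hours. Every library came from infected cells of 1 tumour line, so that the control is a GFP virus and not the uninfected state, and the vector placed a mouse ChREBPβ cDNA tagged with mCherry in rat cells. RNA was amplified before sequencing, so that read counts are not counts of independent molecules. The letters are not tied in the labels to separate cultures, and p-values measure only the spread between these libraries. The sample is bulk RNA, in which fewer cells of a type and less RNA per cell cannot be told apart.

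ChREBP is a basic helix-loop-helix leucine zipper factor that pairs with Mlx and binds a carbohydrate response element, a pair of E-box motifs separated by a short spacer, near genes of glycolysis and lipid synthesis. The full-length ChREBPα is held inactive when glucose is low, and glucose metabolites release that block. ChREBPβ is a shorter product of an alternative promoter of the same gene, lacks most of the low-glucose inhibitory domain, and is itself induced by active ChREBP. In the insulin-producing β-cell, ChREBP is known for carrying the glucose signal to genes of metabolism, redox control and cell division. A ChREBPβ virus at 2 mM glucose therefore asks which genes respond to the factor when the sugar itself is scarce.

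The promoters of a few genes show the element in question. RefSeq windows (build GRCr8, 250 bases before the transcription start) were matched by symbol to 10629 of the 14669 tested genes. A carbohydrate response element in its 17-base form, with a 5-base spacer, was found on either strand in 7 of these windows, or 0.0659%, beside 0.0692% of all 27457 windows in the table. Among the 5833 windows of genes not called there were 4 (0.0686%), and among the 2543 of genes called lower there were 0. Among the 2253 of genes called higher with ChREBPβ there were 3 (0.133%), those of Pklr, Hes1 and Tnfaip3. Counts this small do not allow the groups to be compared. Tnfaip3 (log2 fold change 0.35) was not called against library totals or without GFP library a, GFP library b, ChREBPβ library a or ChREBPβ library c, which leaves 2. The windows around the match in Pklr (liver and red cell pyruvate kinase, the classical ChREBP target) and in Hes1 (a Notch-responsive repressor) are printed because both genes rose, with the element in capitals.
Pklr, chr2:176841076-176841132, plus strand, element starting at position -168: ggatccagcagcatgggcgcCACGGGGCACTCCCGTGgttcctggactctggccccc
Hes1, chr11:84213106-84213162, minus strand, element starting at position -97: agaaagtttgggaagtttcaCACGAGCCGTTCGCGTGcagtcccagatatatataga
The 6-base E-box CACGTG, which reads the same on both strands and can lie inside the longer element, was present in 8.14% of the windows of tested genes, in 9.68% of those called higher and in 6.72% of those called lower. Of 24 tested ChREBP targets 17 had a window, of which 1 held the longer element and 3 the E-box, those of Bhlhe40, Fgf21 and Arrdc4. The E-box is shown in capitals for Bhlhe40, which was called at 2 mM, and for Arrdc4, which was not. Fgf21 was not called either.
Bhlhe40, chr4:143174210-143174255, plus strand, E-box starting at position -220: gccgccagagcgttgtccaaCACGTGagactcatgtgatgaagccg
Arrdc4, chr1:131793577-131793622, minus strand, E-box starting at position -177: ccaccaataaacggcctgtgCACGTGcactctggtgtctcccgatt
These matches describe letters in a window and were not tested for binding.

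The targeted gene was read first. Mlxipl, the rat gene that encodes ChREBP, was at 240.4, 252 and 277 CPM (the gene's reads scaled to library size with TMM factors) in the GFP libraries and at 203, 212 and 199 CPM in the libraries labelled ChREBPβ, so the rat gene fell (log2 fold change -0.33 ± 0.052, SE, n = 3 per group). A second entry named ChREBPb was at 73.2, 78 and 82.2 CPM with GFP and at 90.7, 89.7 and 90.1 CPM with ChREBPβ, and what sequence it counts is not stated in the sources used here. No entry for GFP or mCherry was in the table, so the dose of either virus could not be read from these counts. The response of known targets, given next, is what the libraries show of the virus, and the labels are used as given. Library totals at 2 mM lay between 25754488 and 32938546 reads with GFP and between 28595982 and 57726412 with ChREBPβ.

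ChREBPβ moved a large part of the transcriptome at 2 mM glucose. A gene was called when its edgeR adjusted p was under 0.05 and its change was at least 1.2-fold. Called in either direction were 6476 of 14669 genes (44.1%), of which 3075 were higher (21%) and 3401 lower (23.2%) with ChREBPβ. At 2-fold or more, 748 genes were higher (5.1%) and 708 lower (4.83%). With this much of the genome called, a list of genes is read below against those shares and against the median log2 fold change of all tested genes, -0.0168. Scaling mattered for the split of directions. TMM factors gave 47.5% of calls higher, and plain library totals gave 33.2% with a median of all genes at -0.116. For 9284 tested genes (63.3%) the libraries of the 2 mM groups did not overlap. A lack of overlap, named below for single genes, was therefore common.

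**Figure D1:**
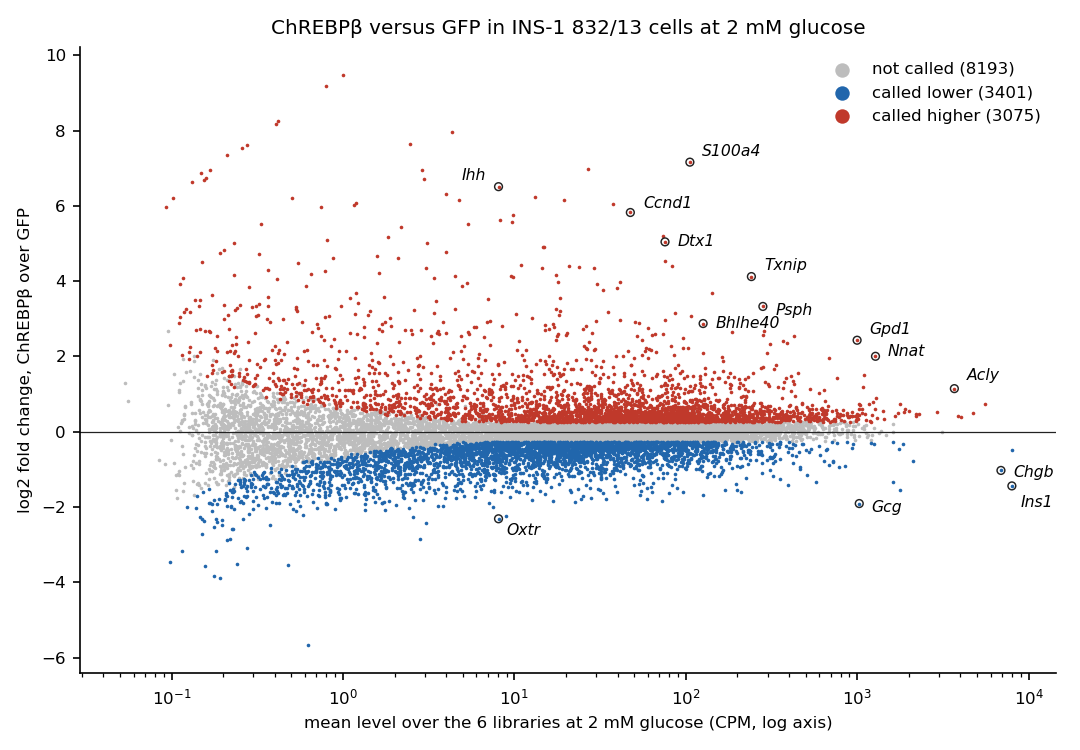
Log2 fold change of each of 14669 tested genes, ChREBPβ over GFP at 2 mM glucose (vertical axis), against its mean level over the 6 libraries in CPM on a log axis, with the 3075 genes called higher in red and the 3401 called lower in blue. The largest changes of well-expressed genes are upward (S100a4, Ccnd1, Dtx1, Txnip), and the insulin gene Ins1 and the granin Chgb, at the right edge, lie below 0.

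Known ChREBP targets rose as a group. Of 24 tested targets, 17 were called higher and 3 lower, with a median log2 fold change of 1.53. When 10 reads were asked of every library, which drops targets near the floor, 14 were higher and 3 lower (median 1.33). Txnip, an α-arrestin that binds thioredoxin, was at 26.8, 24.3 and 27.7 CPM in the GFP libraries and 450.0, 472 and 448 CPM in the ChREBPβ libraries, a rise of 17.4-fold (log2 fold change 4.12 ± 0.054, edgeR adjusted p = 2.12e-21). Gpd1, the enzyme that makes glycerol 3-phosphate, went from 295, 318 and 325 to 1607, 1735 and 1717 CPM. Bhlhe40, a repressor of the circadian clock, went from 30.02, 28.1 and 32.9 to 218, 222 and 227 CPM. In each of these genes the lowest ChREBPβ library was well above the highest GFP library. Tm6sf2, which takes part in hepatic lipid export, changed by 2.22 ± 0.062 on the log2 scale (SE, n = 3 per group), Rgs16, an inhibitor of G protein signalling, by 1.87 ± 0.046, and Ppp1r3b, a glycogen-targeting subunit of protein phosphatase 1, by 1.54 ± 0.058. The catalytic subunit of glucose-6-phosphatase, G6pc, had 0 reads in all 3 GFP libraries and 18, 54 and 50 reads in the ChREBPβ libraries. With 3 reads over the GFP group put in place of 0 the ratio was 27. The lower limit of the 95% exact interval was 21.6, counting error only. G6pc passed the filter on low counts through other groups than GFP at 2 mM. With G6pc set to the ratio of 27 the median of the list was unchanged at 1.53.

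Not every target followed. Slc2a5, the fructose transporter GLUT5, fell from 3.82, 3.85 and 4.58 to 1.15, 1.27 and 1.06 CPM, and Khk, the kinase that starts fructose breakdown, fell from 5.59, 6.76 and 5.9 to 3.98, 2.51 and 3.1 CPM. For both genes every ChREBPβ library was below every GFP library. Pnpla3, a lipase of lipid droplets, fell by 0.67 on the log2 scale. Arrdc4, the α-arrestin closest to Txnip and the owner of the E-box printed above, stood at 199, 198 and 189 CPM with GFP and 179, 183 and 183 CPM with ChREBPβ, a difference under 1.2-fold that was not called. Acacb (log2 fold change -0.19), Me1 (0.18) and Fgf21 (0.73) were not called either, and Fgf21 had under 1 CPM in every library.

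Most glycolytic genes rose. Of 26 tested genes, 18 were called higher and 2 lower (median 0.628). Pklr was at 126, 133 and 129 CPM with GFP and 406, 419 and 426 CPM with ChREBPβ (log2 fold change 1.69 ± 0.048, edgeR adjusted p = 1.52e-16), and Pkm, the pyruvate kinase of most other tissues, was at 626, 677 and 684 and 1450.2, 1523 and 1542 CPM. The groups of libraries lay far apart for both kinases. Upstream, Gpi, which isomerises glucose 6-phosphate, changed by 1.44 ± 0.046 (SE, n = 3 per group) and Pfkl, the liver phosphofructokinase, by 1.08 ± 0.054. Pfkfb3, which makes the phosphofructokinase activator fructose 2,6-bisphosphate, changed by 1.96 ± 0.056, whereas its relative Pfkfb2 went the other way (-0.62 ± 0.053). Downstream, Gapdh, Pgk1, Pgam1 and Eno1 had log2 fold changes of 0.75, 0.65, 0.61 and 0.89.

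The transporters Slc2a2 and Slc16a1 and the hexokinase Hk2 were called higher. Slc2a2, the β-cell glucose transporter GLUT2, changed by 0.5 ± 0.040 on the log2 scale. Slc16a1 encodes the monocarboxylate transporter MCT1, one of the genes that β-cells normally keep silent, and it rose from 4.56, 5.77 and 5.16 to 30.5, 30.6 and 30.3 CPM. Hk2, a high-affinity hexokinase, was at 0.331, 0.175 and 0.16 CPM with GFP and 0.824, 0.998 and 0.734 CPM with ChREBPβ, called higher at a level under 1 CPM in 6 of 6 libraries.

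For branches that leave glycolysis the share of called genes was near the background, at 44.4% in the pentose phosphate and polyol list and 38.5% in the glycogen list beside 44.1% of all tested genes. In the pentose phosphate and polyol list 3 of 9 genes were called higher and 1 lower, and the 3 were the non-oxidative enzymes Tkt (1.56 ± 0.060), Rpia (1.05 ± 0.058) and Taldo1 (0.61 ± 0.048). In the glycogen list 5 of 13 were called higher and 0 lower. Ppp1r3c, a subunit that brings protein phosphatase 1 to glycogen, was at 1.1, 0.904 and 0.898 CPM with GFP and 27.3, 29 and 30.05 CPM with ChREBPβ, a 29.96-fold difference. Pygl, the liver glycogen phosphorylase, went from 9.08, 9.65 and 10.3 to 37, 36 and 36.2 CPM. Glycogen synthase (Gys1, -0.05) was not called. Against library totals 3 genes of this list were lower beside the 5 that were higher. In the gluconeogenesis list 2 of 7 were higher (1 when 10 reads were asked of every library), G6pc and Pc (pyruvate carboxylase, 1.17 ± 0.046), and 4 were lower, among them the fructose bisphosphatases Fbp2 (-1.66 ± 0.20) and Fbp1 (-0.92 ± 0.21).

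In lipid synthesis the steps from citrate to palmitate rose. Of 28 genes of fatty acid and triglyceride synthesis, 9 were called higher and 4 lower (median 0.13), which against library totals was 9 higher and 8 lower. Acly, ATP citrate lyase, was at 2241, 2286 and 2369.9 CPM with GFP and 5030.5, 5135 and 5089 CPM with ChREBPβ (log2 fold change 1.15 ± 0.035, edgeR adjusted p = 5.63e-16). Acaca, acetyl-CoA carboxylase 1, was at 109, 94.4 and 106 and 514, 531 and 518 CPM. Fasn, fatty acid synthase, was at 562, 509 and 639.7 and 1606, 1624 and 1673 CPM. All 3 steps from citrate to palmitate were thus higher, with no overlap of libraries. Scd, a stearoyl-CoA desaturase, was close to the floor, with 2, 3 and 0 reads with GFP and 15, 43 and 26 with ChREBPβ, a ratio of 11.1 (95% exact interval 4.59 to 35.2, counting error only), and its fitted log2 fold change of 3.4 became 4.01 without GFP library b. The elongases Elovl2 (-0.43) and Elovl7 (-0.41) and the desaturase Fads1 (-0.42) fell.

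Sterol genes rose in smaller steps. In cholesterol synthesis and uptake 16 of 28 were called higher and 2 lower (median 0.369). Hmgcs1, the synthase that feeds the rate-limiting step, was at 77.2, 73.1 and 68.3 CPM with GFP and 129, 124 and 126 CPM with ChREBPβ. Abca1, which exports cholesterol, also rose (1.09 ± 0.066). Tm7sf2 (-0.54) and Ebp (-0.43), both late steps, fell.

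In mitochondria, genes at the entry of pyruvate rose. Of 38 genes of pyruvate handling and the TCA cycle, 18 were called higher and 3 lower (median 0.231). Pdhb, the β subunit of pyruvate dehydrogenase E1, was at 94.3, 89.9 and 90.5 CPM with GFP and 276, 268 and 271 CPM with ChREBPβ, and Dlat, the E2 subunit, at 35.8, 38.5 and 33.9 and 76.1, 74.7 and 74.6 CPM. The kinases that switch the complex off moved apart: Pdk2 (0.97 ± 0.080) and Pdk1 (0.69 ± 0.059) rose and Pdk3 (-0.35 ± 0.051) fell. Idh1, the cytosolic isocitrate dehydrogenase that supplies NADPH, fell from 98.7, 99.9 and 92.2 to 44.6, 38.4 and 41.3 CPM, whereas the mitochondrial Me3, another NADPH source, rose (1.2 ± 0.094).

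Nuclear genes of the respiratory chain had 14 of 75 higher and 5 lower, 25.3% in all beside 44.1% of all tested genes. These counts moved with single libraries, to 21 and 2 without GFP library c and to 15 and 3 without ChREBPβ library c, and to 7 and 6 against library totals. Mitochondrial ribosomal proteins had 17 of 73 higher and 0 lower (23.3%), or 7 and 3 against library totals. In fatty acid oxidation 9 of 32 were higher and 10 lower. The coactivator Ppargc1a (1.48 ± 0.084) and the lipid-sensing receptor Ppard (1.03 ± 0.054) rose, and the isomerase Eci1 (-1.24 ± 0.098) and the dehydrogenase Hadh (-0.64 ± 0.042), a gene of high expression in β-cells, fell.

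Translation genes rose together. Cytosolic ribosomal proteins had 64 of 78 called higher and 1 lower, with a median log2 fold change of 0.404. The lower one was Rpl3l (-1.31 ± 0.26), a muscle form. Rplp0, the stalk protein, was at 2284, 2378 and 2595 CPM with GFP and 3369.5, 3434 and 3544 CPM with ChREBPβ. Ribosomal protein genes have many near-identical processed copies in the genome, and how reads were split among them is not stated, so their single values are uncertain. The elongation factors Eef2 (0.51 ± 0.042) and Eef1a1 (0.41 ± 0.035) were among the genes with the largest gains in CPM, a scale that favours long and abundant transcripts because it is not per length.

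Ribosome biogenesis had 61 of 73 called higher and 0 lower (median 0.421). Polr1b, the second largest subunit of RNA polymerase I, was at 29.9, 28.4 and 31.1 CPM with GFP and 60.1, 58.4 and 59.6 CPM with ChREBPβ (log2 fold change 0.99 ± 0.051, edgeR adjusted p = 1.82e-12). Ncl, nucleolin, was at 486, 479 and 455 and 829, 865 and 791 CPM, and Npm1, nucleophosmin, at 910.2, 921 and 880.1 and 1569, 1605 and 1521 CPM. Every step was modest, since 0 genes of the list reached 2-fold, and the groups of libraries did not overlap for any of these 3 genes. Myc, which drives the nucleolar programme in many cells, was at 37, 38.9 and 42.1 CPM with GFP and 114, 108 and 109 CPM with ChREBPβ. Mycn, its relative, was at 1.8, 2.33 and 1.76 and 10.5, 12.2 and 11.1 CPM. Of the partners, Max (0.16), Mlx (0.06) and Mnt (0.21) were not called, Mxi1 rose (1.02 ± 0.041) and Mxd1 fell (-0.69 ± 0.099).

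Nucleotide, serine and one-carbon synthesis had 19 of 40 higher and 1 lower (median 0.248). Psph, which carries out the last step of serine synthesis, stood out within it, at 51.5, 51.4 and 50.3 CPM with GFP and 512, 499 and 527 CPM with ChREBPβ, a 10.04-fold rise with the 3 libraries of each group close together. Odc1, the first enzyme of polyamine synthesis, was at 126, 137 and 129 and 429, 440.2 and 436 CPM. Cad, the enzyme that starts pyrimidine synthesis, changed by 1.19 ± 0.058 (SE, n = 3 per group), the uridine kinase Uck2 by 1.2 ± 0.055 and the serine enzyme Psat1 by 1.06 ± 0.041.

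Genes of the dividing cell followed at a low fold. In DNA replication 24 of 43 were called higher and 0 lower (median 0.314), and in mitosis and cytokinesis 35 of 45 were higher and 0 lower (median 0.35), the latter 22 and 0 against library totals. None of either list reached 2-fold. Mcm10, which helps load the replicative polymerase, was at 30.7, 29.8 and 30.6 CPM with GFP and 55.7, 57 and 54 CPM with ChREBPβ. Cks1b, a subunit of cyclin-dependent kinases, was at 55.6, 58.6 and 55.6 and 93.5, 95.9 and 98.6 CPM, and Aurka, aurora kinase A, at 72.6, 73.1 and 76.6 and 119, 117 and 117 CPM. The libraries of the groups did not overlap for these genes, yet Pcna (0.16) and the helicase subunits Mcm2 (0.05), Mcm4 (-0.03) and Mcm6 (-0.09) were not called.

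Among G1 regulators 9 of 25 were higher and 4 lower. The D-type cyclins, which start the G1 phase, split: Ccnd1 was at 1.36, 1.66 and 1.89 CPM with GFP and 86.6, 101 and 92.4 CPM with ChREBPβ, a 56.6-fold difference, Ccnd2 was at 77.5, 86.1 and 71.6 and 199, 207 and 213 CPM, and Ccnd3 fell (-0.42 ± 0.049). The kinase inhibitor Cdkn1a rose alongside, from 49.2, 49.5 and 50.2 to 116, 118 and 119.6 CPM. Cdkn1a is also a p53 target, and in that list 10 of 25 were higher and 6 lower. Gadd45a, a growth-arrest gene, was at 16.5, 16.5 and 18.6 and 66.4, 69.4 and 72 CPM, and Plk2, a polo-like kinase, changed by 1.51 ± 0.073. Mdm2 (0.1) and Bax (0.2) were not called, and Perp (-0.78), Tigar (-0.77) and Sesn2 (-0.51) fell. In the Bcl2 family 4 of 13 were higher and 4 lower, with the death-promoting Bcl2l11 (0.54 ± 0.055) and the protective Bcl2 (0.42 ± 0.10) both higher. Of the 7 tested death-promoting genes of the BH3-only type, 2 were higher and 2 lower. Among them 1 was higher by 2-fold or more, and their largest log2 fold change was 2.77.

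**Figure D2:**
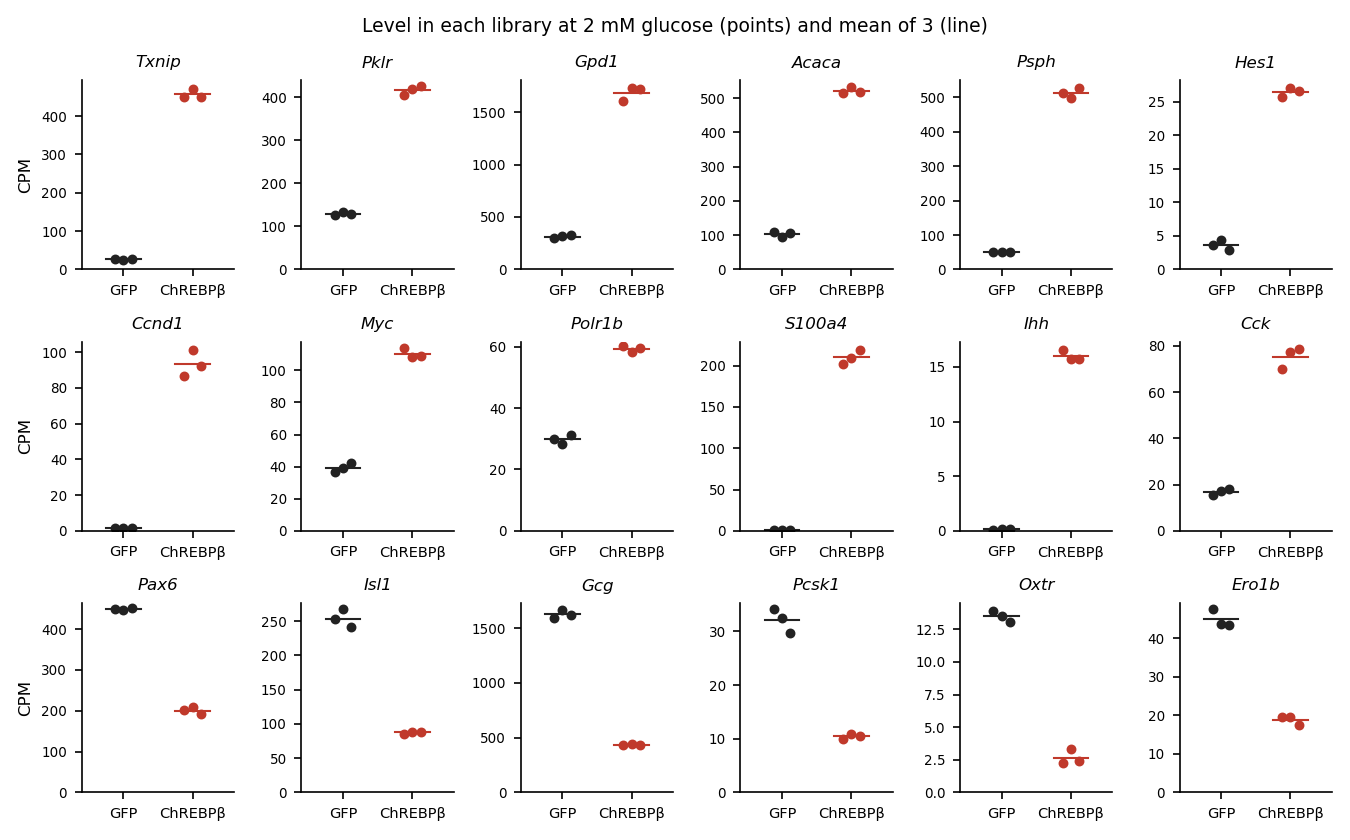
Level of 18 genes in CPM (vertical axis, starting at 0) in each of the 3 GFP libraries (black) and the 3 ChREBPβ libraries (red) at 2 mM glucose, with the mean of each group as a line. In none of the 18 genes does a library of one group reach the range of the other, for the rises (Txnip to Cck) and for the falls (Pax6 to Ero1b) alike. The same held for 63.3% of all tested genes.

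Hormones and the machinery that processes them fell. Of 14 tested islet hormones and peptides, 9 were called lower and 2 higher (median -1.34). Gcg, proglucagon, was at 1589, 1666 and 1617 CPM with GFP and 430.3, 440.2 and 429 CPM with ChREBPβ, a fall of 3.75-fold. Iapp, islet amyloid polypeptide, was at 2645, 2742 and 2608 and 917, 901 and 907 CPM. Ins1 was at 10819, 11556 and 12662 CPM with GFP and 4225, 4366 and 4339 CPM with ChREBPβ, and Ins2 at 66.2, 70.9 and 79.7 and 26, 27.1 and 27.9 CPM. The rat genes Ins1 and Ins2 are near-identical, and the level of each is uncertain for that reason. Cck, cholecystokinin, went against the list, from 15.3, 17.1 and 18.2 to 69.7, 77.5 and 78.6 CPM, as did Tac1 (0.91 ± 0.18), the precursor of substance P.

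Granins and prohormone processing had 12 of 14 called lower and 1 higher (median -0.845). The prohormone convertases Pcsk1, at 34.1, 32.6 and 29.6 CPM with GFP and 10.03, 10.9 and 10.4 CPM with ChREBPβ, and Pcsk2, at 2232, 2316 and 2419 and 923, 906 and 929 CPM, both fell, as did carboxypeptidase E (Cpe, -0.77 ± 0.034) and the amidating enzyme Pam (-0.91 ± 0.034). Among the granins, which pack the granule core, Chgb was at 9231, 9154 and 9400.3 and 4521, 4725 and 4388 CPM, Chga at 8824, 9358 and 9870.2 and 6536, 6788 and 6611 CPM and Scg2 at 817, 830.2 and 830.0 and 330.1, 316 and 328 CPM. The one gene of the list that rose was Scg5 (0.46 ± 0.050), the chaperone of Pcsk2.

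The list of β-cell transcription factors, which also holds other islet and progenitor factors, had 21 of 30 called lower and 6 higher (median -0.585). Its 24 β-cell factors had 19 lower and 3 higher (median -0.687). Its 6 other islet and progenitor factors had 2 lower and 3 higher (median 0.391). Isl1 was at 252, 267 and 241 CPM with GFP and 85, 88.4 and 88.8 CPM with ChREBPβ (log2 fold change -1.54 ± 0.047, edgeR adjusted p = 5.7e-16), and Pax6 at 449.6, 446 and 451 and 201, 208 and 192 CPM. Both are factors that keep endocrine cells in their state, and their libraries did not overlap. Glis3 (-1.6 ± 0.093) and Mnx1 (-1.28 ± 0.063) fell, as did Neurod1 (-0.39 ± 0.044) and Hnf4a (-0.47 ± 0.043). Among those that rose were Sox9, a progenitor and duct factor, from 0.588, 0.933 and 0.994 to 8.24, 8.06 and 8.27 CPM, Hes1, whose promoter is printed above, from 3.67, 4.43 and 2.88 to 25.7, 27.1 and 26.7 CPM, Gata4 (1.13 ± 0.057), Pax4 (2.16 ± 0.40) and Foxa2 (0.35 ± 0.054). In the list of disallowed and dedifferentiation genes, which should be silent in mature β-cells, 11 of 21 were lower and 4 higher, the latter Slc16a1, Sox9, Maf (1.71 ± 0.46) and Acot7 (0.35 ± 0.088). Against library totals Foxa2 and Acot7 were not called (log2 fold changes 0.25 and 0.25).

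Release of the granule and its control changed in both directions, with more falls. In insulin granule exocytosis 22 of 44 were lower and 4 higher (median -0.284), and against library totals 28 and 2. Doc2b, a calcium sensor of fusion, was at 2.46, 1.9 and 2.02 CPM with GFP and 0.573, 0.784 and 0.466 CPM with ChREBPβ, and Slc30a8, the zinc transporter of the granule, at 712, 707 and 689 and 329, 305 and 315 CPM. Tmem163, another zinc transporter of vesicles, fell by a log2 fold change of -1.75 ± 0.069. Rab27a (-1.19 ± 0.089) and Snap25 (-0.55 ± 0.047) fell, Syt7 (0.18) was not called, and Syt4 (0.79 ± 0.050) rose.

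Receptors that control secretion had 16 of 33 lower and 8 higher (median -0.436). Oxtr, the oxytocin receptor, was at 13.9, 13.5 and 13.1 CPM with GFP and 2.26, 3.35 and 2.38 CPM with ChREBPβ, and Crhr1, the corticotropin-releasing hormone receptor, at 35.4, 35.3 and 35.5 and 7.74, 11 and 10.03 CPM. The incretin receptors Gipr (-0.83 ± 0.051) and Glp1r (-0.64 ± 0.053) fell as well. The receptors Casr, which senses calcium (1.61 ± 0.11), Vipr1, for vasoactive intestinal peptide (1.65 ± 0.21), and Gcgr, for glucagon (1.22 ± 0.046), rose. P2ry1, an ATP receptor, fell from 94.1, 90.04 and 91 to 26.5, 27.1 and 25.7 CPM.

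Among 43 ion channels of β-cell excitability 16 were lower and 9 higher (median -0.143). Both subunits of the ATP-sensitive potassium channel were called lower, Kcnj11 at 431, 445 and 455 CPM with GFP and 264, 268 and 272 CPM with ChREBPβ, and Abcc8 at -0.32 ± 0.056 on the log2 scale, although Abcc8 did not reach 1.2-fold without GFP library c (log2 fold change -0.24). The voltage-gated potassium channel Kcna2 rose from 5.22, 5.6 and 4.87 to 79, 72.2 and 71 CPM. The L-type calcium channel Cacna1d (-0.01) was not called. In cyclic AMP signalling 10 of 38 were higher and 13 lower, and 6 and 15 against library totals. Its phosphodiesterases moved apart, Pde4b rising from 7.02, 6.3 and 5.9 to 24.5, 26.9 and 25.2 CPM and Pde3b, Pde8b and Pde1a falling (-1.02, -1.13 and -1.93).

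Called genes of protein folding were mostly lower in the endoplasmic reticulum and mostly higher in the cytosol. ER chaperones and the unfolded protein response had 20 of 46 lower and 3 higher (median -0.169). Ero1b, the oxidase of proinsulin folding, was at 47.6, 43.8 and 43.6 CPM with GFP and 19.6, 19.6 and 17.4 CPM with ChREBPβ, and Sdf2l1, a chaperone cofactor, at 43.1, 48.3 and 45.3 and 21.6, 21.5 and 21.9 CPM. Hspa5, the chaperone BiP, had a called fall of -0.32 ± 0.037. The 3 that rose were the stress sensor Eif2ak3 (0.75 ± 0.044), its fellow sensor Ern1 (0.49 ± 0.060) and Herpud1 (0.49 ± 0.057). Cytosolic chaperones had 13 of 20 higher and 1 lower (median 0.359), the lower one being Hspa4l (-0.3), which was not called without ChREBPβ library b. Subunits of the chaperonin such as Tcp1 (0.62 ± 0.040) and Cct5 (0.57 ± 0.046) were among the 13.

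The proteasome had 25 of 47 higher and 2 lower (median 0.279), and 10 and 3 against library totals. The 2 lower ones were Psme1 (-0.32 ± 0.12) and Psme2 (-0.45 ± 0.060), the interferon-induced activator subunits, of which 1 was left when GFP library a, GFP library b or ChREBPβ library c was omitted, and the related nuclear activator Psme3 rose (0.8 ± 0.041). In the integrated stress response 10 of 25 were higher and 4 lower (median 0.242). Slc7a11, the cystine transporter, changed by 1.91 ± 0.24, Asns, asparagine synthetase, by 1.43 ± 0.043, and Atf4 by 0.59 ± 0.050, whereas Ddit3 (0.1) and Ppp1r15a (0.0) were not called. Gss, glutathione synthetase, was at 26.3, 27 and 28 CPM with GFP and 82.7, 84.1 and 83.8 CPM with ChREBPβ, in a list of antioxidant enzymes with 12 of 45 higher and 12 lower (7 and 13 against library totals). Lysosome and autophagy genes had 18 of 66 lower and 5 higher (median -0.124), 27 and 1 against library totals, and the 18 included the hydrolases Neu1 (-0.91 ± 0.066) and Gaa (-0.79 ± 0.039).

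**Figure D3:**
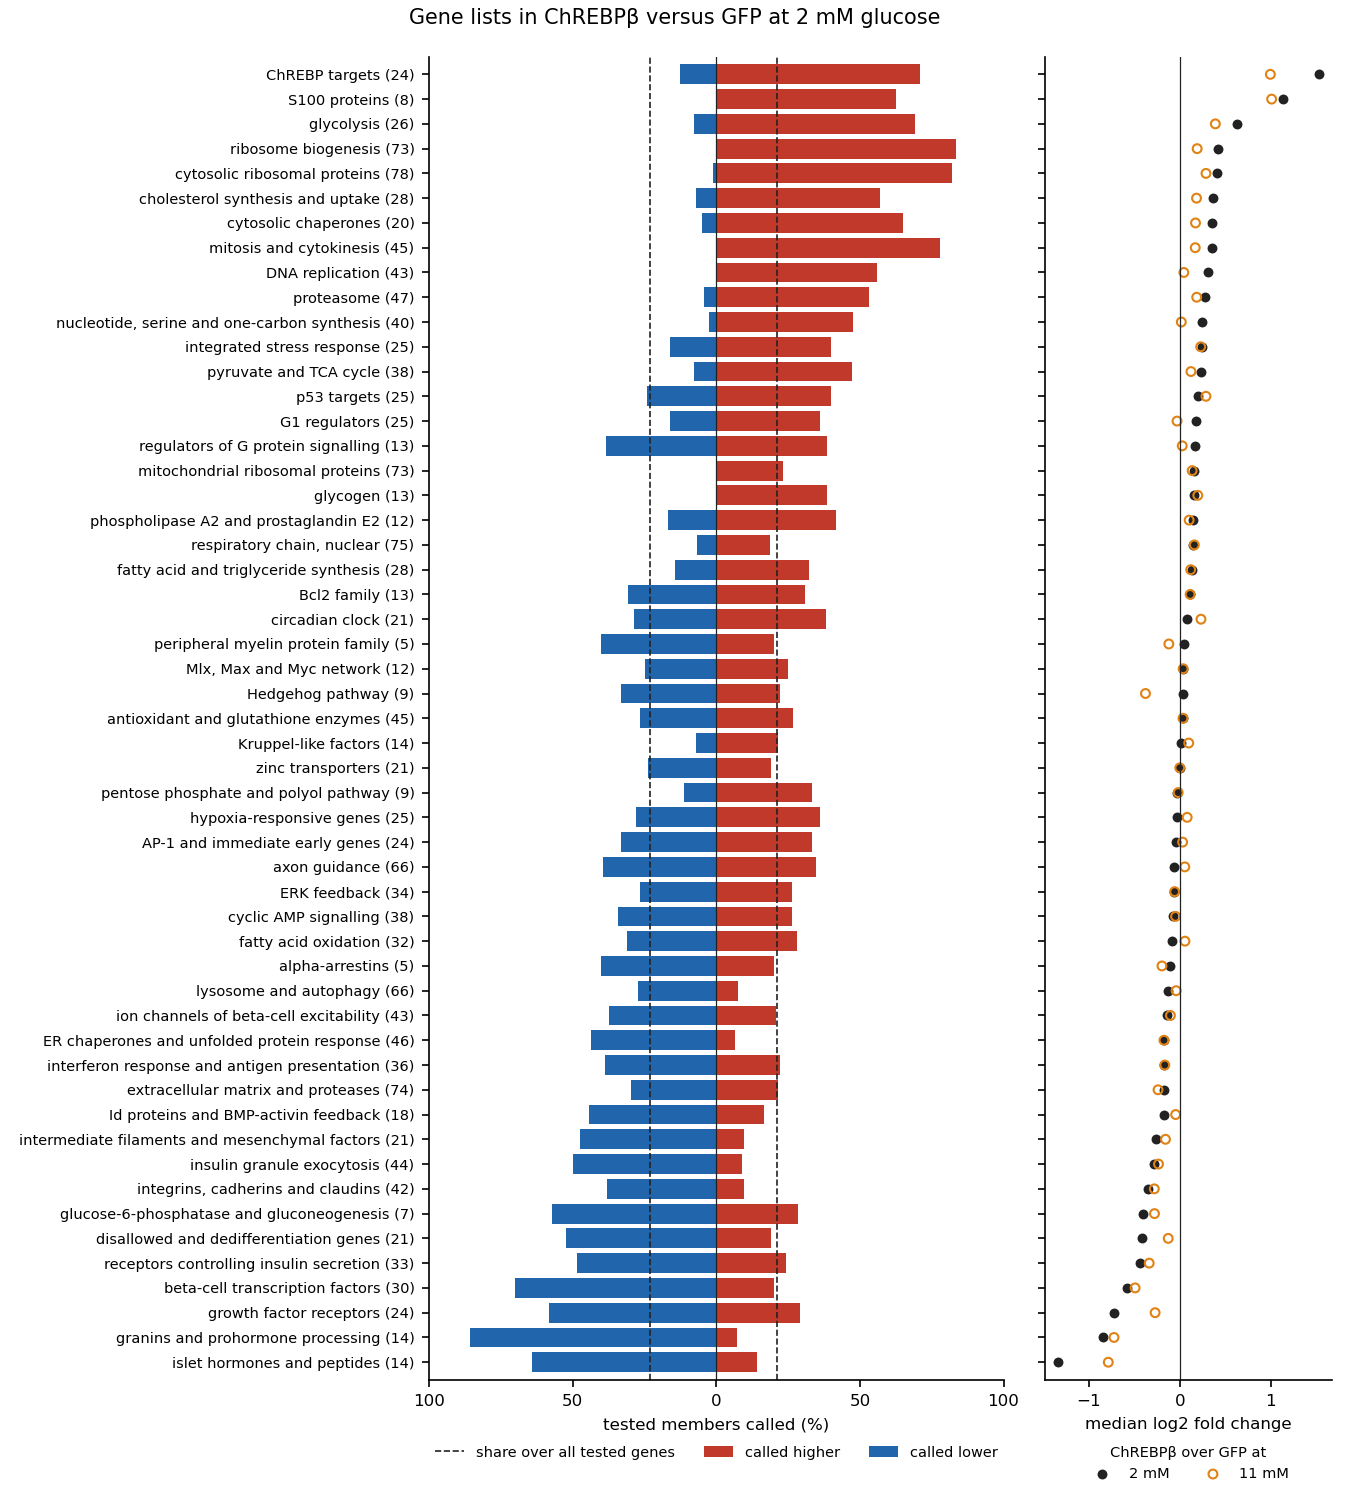
Left, percent of tested members of 53 gene lists called higher (red, to the right) or lower (blue, to the left) with ChREBPβ at 2 mM glucose, the number of tested members in parentheses, and the shares over all tested genes as dashed lines (21% higher, 23.2% lower). Right, median log2 fold change of each list at 2 mM (filled) and 11 mM glucose (open), with ChREBP targets at the top (1.53 at 2 mM) and islet hormones at the bottom (-1.34).

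Several genes of the matrix and the calcium-binding protein S100a4 rose from low levels. S100a4 was at 1.21, 1.57 and 1.57 CPM with GFP and 202, 209 and 218 CPM with ChREBPβ (log2 fold change 7.16 ± 0.11, edgeR adjusted p = 1.3e-20), the largest increase among called genes at 5 CPM or more on average. In the S100 list 5 of 8 were higher and 0 lower (median 1.14), the others that rose being S100a6, S100a3, S100a5 and S100a10. Library totals gave 5 higher and 1 lower, and DESeq2 and the fit with no filter gave 6 higher and 1 lower with medians of 0.525 and 0.518. S100a6 had 5 reads over the GFP libraries and 95 over the ChREBPβ libraries (ratio 12.6, 95% exact interval 5.21 to 39.7). The fitted log2 fold change of S100a6 was 3.57, and 4.35 and 2.94 without GFP library a and b. Tnxb, tenascin X, was at 1.1, 0.904 and 1.35 and 71.1, 77.5 and 73.8 CPM, Adamts8, a secreted protease, at 0.367, 0.35 and 0.353 and 17.7, 20.5 and 19.98 CPM, and Col5a3, a collagen V chain, at 0.441, 0.437 and 0.321 and 19, 19.5 and 18.5 CPM. Lamc3, a laminin chain, had 2 reads over the GFP libraries and 687 over the ChREBPβ libraries (ratio 228, 95% exact interval 62.8 to 1880). Yet the list of matrix genes and proteases as a whole was called in both directions, with 16 of 74 higher and 22 lower (median -0.175). Fibronectin (Fn1, -0.95 ± 0.10) was among the latter. In all 51.4% of the list were called beside 44.1% of all tested genes, which also had more falls (23.2%) than rises (21%). At 2-fold or more the list had 10 higher and 10 lower.

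Cell adhesion genes were called lower more often than higher. Integrins, cadherins and claudins had 16 of 42 lower and 4 higher (median -0.347). Cdh23, a cadherin best known from hair cells, was at 38, 34.2 and 41.3 CPM with GFP and 11.2, 11.8 and 10.1 CPM with ChREBPβ, and Itga6, a laminin receptor chain, changed by -0.75 ± 0.066. Cldn15, a claudin, rose from 4.01, 3.47 and 4.97 to 28, 27 and 27.7 CPM. Axon guidance was a family called often in both directions, 23 of 66 higher and 26 lower (median -0.0663). Its ephrins rose, Efna1 from 0.808, 0.583 and 0.577 to 9.67, 9.57 and 10.7 CPM, Efna3 by 2.88 ± 0.059 and Efna4 by 1.94 ± 0.30 on the log2 scale, while Efnb2 fell (-0.85 ± 0.070). Ntng2, a netrin G, was at 1.07, 1.08 and 0.801 CPM with GFP and 18.5, 22 and 22.1 CPM with ChREBPβ, and its relative Ntng1 fell (-1.09 ± 0.26).

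Growth factor receptors had 14 of 24 lower and 7 higher (median -0.728), or 14 and 4 when 10 reads were asked of every library. Gfra1, a GDNF co-receptor, was at 11.2, 13.4 and 9.1 CPM with GFP and 3.29, 2.8 and 3.08 CPM with ChREBPβ, and Egfr (-0.93 ± 0.15), Igf1r (-1.06 ± 0.082) and Insr (-0.41 ± 0.085) also fell. Ret, the signalling partner of Gfra1, rose (0.74 ± 0.056). The receptors with high folds, Pdgfrb (1 read over the GFP libraries and 84 over the ChREBPβ libraries, ratio 55.7, 95% exact interval 9.72 to 2220) and Axl (2 and 91 reads, ratio 30.2, 8.11 to 253), started from the floor, and the fitted log2 fold change of Pdgfrb went from 5.53 to 7.83 without GFP library b, which held that 1 read. In the Hedgehog list the ligand Ihh, Indian hedgehog, was at 0.11, 0.204 and 0.192 CPM with GFP and 16.5, 15.7 and 15.8 CPM with ChREBPβ, while the pathway's own target genes Ptch1 (-0.59 ± 0.051) and Hhip (-1.07 ± 0.30) fell.

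Signalling and clock genes were called in both directions. In the circadian list 8 of 21 were higher and 6 lower. Ciart, a repressor of the clock, was at 0.919, 1.08 and 0.962 CPM with GFP and 5.55, 6.13 and 6.52 CPM with ChREBPβ, and Nr1d1 (1.08 ± 0.084), Arntl (0.81 ± 0.056) and Bhlhe41 (1.12 ± 0.064) rose, while Arntl2 (-1.38 ± 0.39) and Dbp (-0.46 ± 0.063) fell. Immediate early genes had 8 of 24 higher and 8 lower, with Atf3 at 4.48, 4.26 and 4.23 CPM with GFP and 29.5, 30.1 and 30.2 CPM with ChREBPβ, Junb higher (1.5 ± 0.053) and Egr1 lower (-1.06 ± 0.085). In ERK feedback 9 of 34 were higher and 9 lower, and Dusp4, a phosphatase of ERK, rose from 17.4, 14 and 15.5 to 60.2, 63.9 and 63.6 CPM while Dusp10 fell (-1.41 ± 0.064). Hypoxia-responsive genes had 9 of 25 higher and 7 lower, and 8 and 4 without ChREBPβ library c. Egln3, an oxygen sensor, rose from 7.17, 6.39 and 7.15 to 51.2, 52.6 and 55.9 CPM, whereas Vegfa (-0.03) and Car9 (-0.12) were not called. Interferon response genes had 14 of 36 lower and 8 higher (median -0.172), with Stat2 (-0.96 ± 0.071) and Irf9 (-0.52 ± 0.098) lower and Irf7 (0.67 ± 0.11) higher.

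By size alone, the 15 largest increases among called genes averaging 5 CPM or more with no overlap of libraries were S100a4, Prok2, Ihh, Pla2g2f, Islr2, Tnxb, Ccnd1, Adamts8, Emp1, Col5a3, Ramp1, Cilp2, Dtx1, Ppp1r3c and Acan. Prok2, a secreted prokineticin, was at 0.625, 0.496 and 0.16 CPM with GFP and 50.3, 52.3 and 57.4 CPM with ChREBPβ, and Emp1, a membrane protein of the peripheral myelin family, at 0.404, 0.292 and 0.288 and 16.1, 16 and 16.6 CPM. Dtx1, a modulator of Notch signalling, was at 4.41, 4.58 and 4.36 and 147, 145 and 148 CPM. The 15 largest decreases were smaller in fold, from 4.96-fold to 3.31-fold, and included Oxtr, C1r, Syk, Gcg, Gfra1, Crhr1, Glb1l2, Car8, P2ry1, Vdr, Cdh23, Tmem163, Dnai1 and Mctp2. The vitamin D receptor Vdr, for one, was at 51.5, 53.7 and 54.8 CPM with GFP and 14.9, 18.1 and 13.3 CPM with ChREBPβ.

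In CPM, the 10 largest gains were Mt-co1, Acly, Eef2, Nnat, Gpd1, Eef1a1, Fasn, Hsp90ab1, Rplp0 and Gapdh, and the 10 largest losses were Ins1, Chgb, Chga, Iapp, Pcsk2, Gcg, Cpe, Gnas, Pam and Scg2. Nnat, neuronatin, a membrane peptide of the β-cell, was at 466, 484 and 582 CPM with GFP and 2044, 2006 and 2095 CPM with ChREBPβ. Eef1a1, Hsp90ab1, Rplp0 and Gapdh have processed copies in the genome, and their values share the limit given for ribosomal proteins.

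Some genes were near the floor in 1 group, and their folds rest on few reads. At most 3 reads in every GFP library were found for 86 tested genes and at most 3 in every ChREBPβ library for 13. Such genes passed the filter on low counts through other groups, so how many of them were called is not read as a result. Depth also differed, with 3 reads at 0.0875 to 0.11 CPM in the GFP libraries and 0.0535 to 0.107 CPM in the ChREBPβ libraries. The 86 and the 13 are therefore not compared. Among the first, Islr, a secreted leucine-rich repeat protein, had 3 reads over the GFP libraries and 1230 over the ChREBPβ libraries (ratio 272, 95% exact interval 92.8 to 1320). All 3 of those GFP reads were in library c, and the fitted log2 fold change of Islr, 7.95, was 11.6 without GFP library c and 7.33 without GFP library b. Calhm1, a calcium-permeable channel, had a ratio of 132 (51.4 to 486) and a fitted log2 fold change of 6.96, or 6.33 without GFP library b. Among the second, Gba3, a cytosolic β-glucosidase, had 116 reads with GFP and 3 with ChREBPβ, a ratio of GFP over ChREBPβ of 58.3 (19.5 to 287), and its fitted log2 fold change of -5.66 was -6.73 and -4.99 without ChREBPβ library a and c.

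The effect of the same virus at 11 mM glucose was measured in 6 other libraries, which allows the glucose dependence of each change to be tested. At 11 mM 4904 genes were called (33.4%). Called at both glucose levels in the same direction were 4144 genes, 64% of the calls at 2 mM and 84.5% of those at 11 mM, and 2 were called in opposite directions. A difference between the effects was called for 925 genes (6.31%), 696 of them with the more negative effect at 11 mM and 229 with the more positive one. The ChREBP targets had 10 of 24 members with a called difference, and 17 were called higher at either glucose level. Txnip changed by 0.93 ± 0.046 on the log2 scale at 11 mM beside 4.12 at 2 mM (difference -3.2 ± 0.069, edgeR adjusted p = 7.35e-17). Its level in the GFP libraries at 11 mM was 335, 347 and 370.4 CPM, and with ChREBPβ at 11 mM it was 662, 659 and 677 CPM.

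Lists of growth genes held many called differences. Ribosome biogenesis, with 61 of 73 called higher at 2 mM, had 15 higher and 2 lower at 11 mM (median 0.191), and a difference was called for 36. DNA replication had 3 higher and 2 lower at 11 mM in place of 24 and 0, with 16 differences, and nucleotide, serine and one-carbon synthesis 7 and 1 in place of 19 and 1, with 16 differences. Polr1b changed by 0.35 ± 0.048 at 11 mM (difference -0.65 ± 0.070), Myc by 0.44 ± 0.047 (difference -1.05 ± 0.069, edgeR adjusted p = 3.47e-09) and Cad by 0.56 ± 0.056 (difference -0.63 ± 0.080). Cytosolic ribosomal proteins, with 5 differences in 78, had 45 members called higher and 1 lower at 11 mM.

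Lists of the β-cell varied in their called differences, beside 6.31% of all tested genes. Islet hormones had 0 of 14, granins and prohormone processing 2 of 14 (Pcsk1 and Chgb), insulin granule exocytosis 5 of 44, receptors 2 of 33 and integrins, cadherins and claudins 0 of 42. A gene without a call can miss the threshold of p or only the minimum of 1.2-fold, and neither shows that the effects were alike. For Gcg the difference was 0.11 ± 0.060 (edgeR adjusted p = 0.299). For Iapp it was 0.2 ± 0.052 (edgeR adjusted p = 0.0199), which passed the threshold of p and was under 1.2-fold. The list of β-cell and other islet transcription factors had 9 of 30, among them Isl1 (-1.54 at 2 mM, -1.23 at 11 mM, difference 0.31 ± 0.066). Ccnd1 changed by 5.82 and 6.01 at the 2 glucose levels, with no called difference (0.19 ± 0.18). Of the 15 largest increases 12 had a called difference and of the 15 largest decreases 4. These genes were ranked by their change at 2 mM, which the difference includes. Their counts are therefore not read against the 6.31% of all tested genes.

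**Figure D4:**
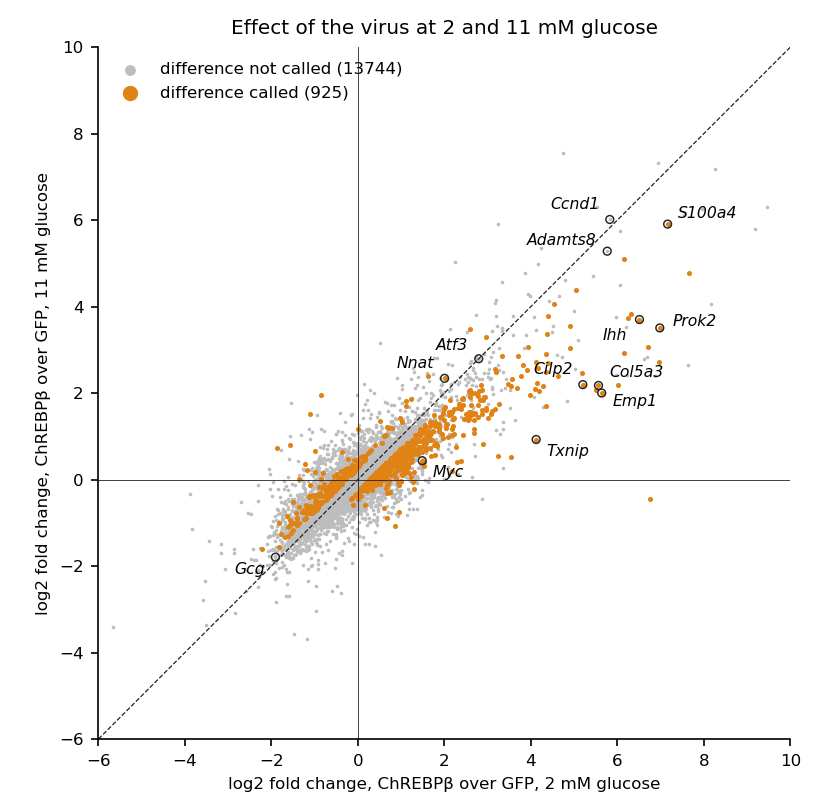
Log2 fold change of ChREBPβ over GFP at 11 mM glucose (vertical axis) against that at 2 mM (horizontal axis) for 14669 tested genes, with the 925 genes whose 2 effects differed by the edgeR test in orange and equal effects on the dashed line. Txnip, Emp1, Col5a3 and Prok2 lie below the line, and Ccnd1, Gcg and Atf3 lie near it.

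Raising glucose from 2 to 11 mM in GFP cells offers a scale for these changes. That comparison uses the same GFP libraries at 2 mM as its base, so the effects are set side by side only, and the test is of ChREBPβ at 2 mM directly against GFP at 11 mM, in which 3955 genes differed (27%). Txnip changed by 3.74 ± 0.054 with glucose and by 4.12 ± 0.054 with the virus, and ChREBPβ at 2 mM was 0.38 ± 0.045 above GFP at 11 mM. Pklr changed by 0.7 ± 0.047 with glucose and 1.69 ± 0.048 with the virus (direct difference 0.98 ± 0.046), and Acaca by 0.72 ± 0.063 and 2.34 ± 0.065 (direct difference 1.61 ± 0.062). Fasn (0.2, edgeR adjusted p = 0.0181) and Acly (0.25, edgeR adjusted p = 1.73e-05) rose with glucose by under 1.2-fold and were not called for that reason. Of the 24 targets 18 differed between ChREBPβ at 2 mM and GFP at 11 mM. Arrdc4 was one whose order was the other way, with 0.5 ± 0.037 for glucose, -0.1 ± 0.037 for the virus and a direct difference of -0.61 ± 0.037.

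The lists differed on this scale too. Direct differences were few in growth lists, with 10 of 73 genes in ribosome biogenesis, 4 of 43 in DNA replication and 5 of 45 in mitosis, where the median effects of glucose in GFP cells were 0.351, 0.236 and 0.277 beside 0.421, 0.314 and 0.35 for the virus. In β-cell lists they were many, with 10 of 14 hormones, 12 of 14 granins and processing enzymes and 20 of 30 transcription factors, whose median effects of glucose were -0.313, -0.16 and -0.288. Gcg changed by 0.03 ± 0.042 with glucose, not called, and by -1.91 ± 0.044 with the virus. In ER chaperones and the unfolded protein response 23 of 46 differed, with a median of 0.0335 for glucose and -0.169 for the virus. Single genes went in opposite directions: Nnat fell with glucose (-0.44 ± 0.068) and rose with the virus (2.0 ± 0.070), Pdk2 likewise (-0.34 ± 0.086 and 0.97 ± 0.080), and Nr4a1, an immediate early gene, rose with glucose (0.38 ± 0.070) and fell with the virus (-0.66 ± 0.074).

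Markers of the labelled cell and of other cell types were read beside these results. All 7 tested β-cell markers were lower, with a summed level of 14700 to 16500 CPM in the GFP libraries and 5680 to 5790 CPM in the ChREBPβ libraries, and G6pc2, a further β-cell marker, had at most 3 reads in each of the 6 libraries. The fibroblast markers summed to 0.0321 to 0.117 CPM with GFP and 0.481 to 1.15 CPM with ChREBPβ, with Col3a1, Dcn, Lum and Rgs5 at no more than 3 reads in any of the 6. Leukocyte markers summed to 0.353 to 0.625 and 0.624 to 1.22 CPM, with Ptprc, Aif1 and Cd3e at that floor. Endothelial markers summed to 2.76 to 4.02 CPM with GFP and 2.3 to 2.36 CPM with ChREBPβ, acinar markers to 3.73 to 5.51 and 4.47 to 5.05 CPM, and duct markers to 129 to 140 and 161 to 171 CPM. Among markers of other islet cells Gcg carried the sum, 1590 to 1670 CPM with GFP and 429 to 441 CPM with ChREBPβ, while Sst and Irx2 were at the floor.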

How the data were processed

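RNA-seq was done by the study on INS-1 832/13 cells, 12 libraries in 4 groups of 3 (GFP or ChREBPβ adenovirus, 2 or 11 mM glucose). Total RNA was amplified with the NuGEN Ovation kit and sequenced as paired ends. The authors deposited raw read counts per gene. The submitters' processing notes name the rat build Rnor 6.0 and edgeR, and the aligner and the counting program are not given in the sources used here. Columns of group means made by the authors were not used.

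The deposited counts were scaled by TMM factors (0.972 to 1.06 in the 6 libraries at 2 mM) and fitted with the quasi-likelihood test of edgeR 4.0.16 (limma 3.58.1, R 4.3.3) over all 12 libraries with 1 term per group, after filterByExpr had kept 14669 of 28727 named genes. The 1 row without a gene name held 0.00481 to 0.00509% of the reads in the GFP libraries at 2 mM and was left out. A gene was called at a Benjamini-Hochberg adjusted p under 0.05 over all tested genes and a change of at least 1.2-fold. Levels are CPM with those factors. Errors of log2 fold changes are approximate SE (n = 3 per group), computed as the absolute change over the square root of the test's F statistic. Genes near the floor of 3 reads have ratios of summed reads with exact binomial intervals (95%, counting error only). The script was tested on simulated data. Replicates differed by more than sampling noise (chi-square per degree of freedom 3.13 to 11.9 between libraries of a group).

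Genes were named by rule: members of 53 lists (1902 genes, 1595 tested) and of 7 cell type marker lists, the ChREBP entries, the 15 largest increases and decreases at a mean of at least 5 CPM, the 10 largest gains and losses in CPM, and genes at the floor in 1 group. Some genes that the rule names are not reported here. The members and lists were chosen with earlier results of these data known. Promoter sequences are from RefSeq on build GRCr8. Alternatives were other scalings, DESeq2 1.42.0, filters, fold minimums, a replicate block and each library left out.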

Additional observations from a re-analysis of the deposited data

Results flagged for a closer look

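Of 239 genes named in the report, 76 had an effect of ChREBPβ that differed between 11 and 2 mM glucose by the edgeR test of the difference itself, against 6.31% of all tested genes. The values below are the log2 effect at 11 mM minus that at 2 mM, and many of these genes were named for a large change at 2 mM, which the difference includes. A smaller rise at 11 mM was found for 60 genes, all 60 of which were also called higher there.

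Differences beyond 1 log2 unit among these rises were -4.23 for Calhm1 (4 reads over the GFP libraries at 2 mM), -3.64 for Emp1, -3.47 for Prok2, -3.44 for Ramp1, -3.39 for Col5a3, -3.20 for Txnip, -3.01 for Cilp2, -2.87 for Lamc3 (2 reads over those libraries), -2.81 for Ihh, -2.50 for Pla2g2f, -1.86 for Ppp1r3c, -1.36 for Efna3, -1.35 for Egln3, -1.34 for Acan, -1.27 for Bhlhe40, -1.25 for S100a4, -1.17 for Slc16a1, -1.16 for Kcna2, -1.16 for Tm6sf2, -1.12 for Ciart, -1.05 for Myc, -1.04 for Islr2 and -1.0 for Pfkfb3. The effect for Islr2 at 2 mM, 6.15 on the log2 scale, was 6.74 without GFP library c.

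In metabolism the differences were -0.69 for Rgs16, -0.62 for Ppp1r3b, -0.61 for Pklr, -0.58 for Acaca, -0.57 for Pkm, -0.55 for Gpd1, -0.55 for Me3, -0.51 for Pdhb, -0.41 for Eno1, -0.41 for Gpi, -0.36 for Hmgcs1, -0.35 for Pdk1, -0.34 for Gapdh, -0.33 for Tkt, -0.30 for Rpia and -0.27 for Pgk1. In growth and serine or nucleotide synthesis they were -0.65 for Polr1b, -0.63 for Cad, -0.53 for Psat1, -0.48 for Ccnd2, -0.47 for Psph, -0.44 for Mcm10, -0.44 for Odc1, -0.44 for Uck2, -0.39 for Ncl, -0.38 for Npm1, -0.34 for Gadd45a and -0.33 for Cks1b. Other rises differed by -0.87 for Efna1, -0.83 for Gcgr, -0.67 for Dtx1, -0.65 for Hes1, -0.61 for Gata4, -0.61 for Pde4b, -0.36 for Psme3, -0.31 for Tcp1 and -0.29 for Syt4.

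A smaller fall at 11 mM was found for 13 genes, 10 of which were also called lower there. The differences were 0.61 for C1r, 0.52 for Vdr, 0.47 for Irf9, 0.44 for Dbp, 0.42 for Rab27a, 0.35 for Dusp10, 0.34 for Stat2, 0.32 for Pcsk1, 0.31 for Idh1, 0.31 for Isl1, 0.29 for Chgb, 0.28 for Glb1l2 and 0.27 for Hnf4a. The rise was larger at 11 mM for 3 genes, by 0.46 for Pdk2, 0.34 for Nnat and 0.31 for Ppard.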

How the results depend on the processing

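The counts of called genes at 2 mM, 6476 in all, stayed within 1.5 times under every alternative of scaling, tool, filter and left-out library, from 6024 with at least 10 reads in every library to 6624 with no filter (DESeq2, 6391). A minimum of 2-fold moved them to 1456, of which 748 were higher and 708 lower, and no minimum gave 8606. The main calls apply 1.2-fold to the estimated change. A test against 1.2-fold itself (glmTreat of edgeR) called 4522 genes, 2115 higher and 2407 lower. With library totals 2196 were higher and 4421 lower. The labels do not say whether libraries of 1 letter are pairs, and the letters were not treated as pairs. Deviations of same-letter GFP and ChREBPβ libraries at 2 mM correlated at 0.0462, 0.0191 and 0.0319. Those of different letters correlated at -0.0344 to 0.00981, and such weak correlations cannot settle the question. With the letter as a replicate block 6449 genes were called, 3076 higher and 3373 lower. The range without 1 library was 6140 to 6379 at 2 mM, 669 (without GFP library c at 11 mM) to 1078 for the difference between glucose levels and 3613 to 3911 for ChREBPβ at 2 mM against GFP at 11 mM. Of 239 genes named, 218 were called at 2 mM, and 6 of these lost the call under at least 1 alternative of scaling, tool, filter, replicate block, groups fitted or left-out library (Abcc8, Acot7, Foxa2, Hspa4l, Psme1 and Tnfaip3). Under these, where they gave a value, 0 called genes changed direction. The other fold minimums and the test against 1.2-fold were applied to the counts only. Counts of list members moved past 1.5 times in 36 of 1378 cases, given beside those counts that the report prints. Depth limits genes near 3 reads.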

Other observations

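Genes of the mitochondrial genome, a group chosen after its values were seen because Mt-co1 headed the gains in CPM, had 9 of 13 tested members called higher at 2 mM and 0 lower, with a median log2 fold change of 0.582. Mt-co1, a subunit of cytochrome c oxidase, was at 3191, 5496 and 3919 CPM with GFP and 6929.6, 7578 and 6462 CPM with ChREBPβ (log2 fold change 0.73 ± 0.13, SE, n = 3 per group). Mt-cyb, of complex III, changed by 0.74 ± 0.20, and Mt-nd5, of complex I, by 0.72 ± 0.19. These 13 genes took 1.15, 2.04 and 1.35% of the reads in the GFP libraries a, b and c and 2.04, 2.22 and 1.86% in the ChREBPβ libraries, so that GFP library b lay within the range of the other group. Without GFP library b 11 were called higher and 0 lower, and without any other of the 6 libraries 8 or 9 were higher and 0 lower. The nuclear genes of the respiratory chain, with 14 of 75 higher, had a median of 0.144.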
